A study of Homo sapiens with 9 samples.

Results

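The transcription factors described here are listed under the granulocyte and monocyte lineages of blood. They were taken from a fixed list of 10 human genes: SPI1, CEBPA, CEBPB, CEBPD, CEBPE, CEBPG, GFI1, IRF8, KLF4 and RUNX1. Of these, 6 have a row among the 16612 genes of the table: SPI1, CEBPA, CEBPB, CEBPG, GFI1 and RUNX1. CEBPD, CEBPE, IRF8 and KLF4 were not analysed here. The cells were HNT34, a human acute myeloid leukemia (AML) line with high expression of EVI1, a zinc finger factor encoded by MECOM. They carried a non-targeting shRNA (NT) or an shRNA against EVI1, sh#16 or sh#87, and were collected 3 days after selection, with 3 libraries per group. All 9 libraries come from this single line, so they describe its response alone, and NT cells were transduced and selected too. A field of the sample labels numbers the shRNA of the sh#87 libraries 18, and their titles, which were followed here, number it 87.

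PU.1, the product of SPI1, is an ETS family factor needed for monocytes, granulocytes and B cells. C/EBP factors are basic leucine zipper proteins that bind DNA as dimers: C/EBPα drives granulocyte commitment, C/EBPβ takes part in emergency granulopoiesis and macrophage function, and C/EBPγ lacks a strong activation domain and pairs with other C/EBP or ATF proteins. GFI1 is a zinc finger repressor that favours granulocytes over monocytes, and RUNX1 is the DNA binding subunit of core binding factor, required for definitive hematopoiesis.

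Libraries held between 17096170 and 43502389 counts. MECOM fell from 505 ± 65.4 CPM (counts scaled to a common library total after TMM normalization, given as mean ± SD with n = 3) in NT to 145 ± 1.43 with sh#16 and 107 ± 1.72 with sh#87. Of 5 markers of AML blasts, all in the table, PTPRC, CD34 and KIT fell with both shRNAs and CD33 and ANPEP did not pass the test. Their summed level was 1922 to 2039 CPM in NT, 610 to 619 CPM with sh#16 and 342 to 347 CPM with sh#87. The table held 0 of 5 erythroid, 1 of 4 megakaryocyte, 3 of 4 B cell, 2 of 4 T cell and 2 of 4 epithelial markers, with summed levels in NT of 108 to 267 CPM for the megakaryocyte gene ITGA2B, 21.1 to 48.5 CPM for B cell, 7.27 to 10.1 CPM for T cell and 126 to 138 CPM for epithelial genes. With sh#16 the same sums were 62.2 to 66.4, 5.70 to 6.18, 5.49 to 6.46 and 92.3 to 99.4 CPM, and with sh#87 they were 31.0 to 35.4, 2.64 to 3.22, 3.36 to 3.93 and 69.8 to 77.0 CPM. Their part in the results below was not tested, and in bulk RNA fewer cells with a transcript cannot be told apart from less transcript per cell.

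The NT libraries stood apart from one another. Their biological coefficient of variation was 25.0%, against 3.77% among sh#16 and 6.98% among sh#87 libraries. Mitochondrial transcripts took 15.9%, 11.6% and 4.69% of the counts in NT libraries 1, 2 and 3, and between 2.69% and 5.97% in the knockdown libraries. The level of GC-rich genes also differed: the mean deviation of the 10% of genes richest in GC minus that of the 10% poorest in GC was -1.54, -0.85 and -0.19 on the log2 scale in NT libraries 1, 2 and 3, between 0.28 and 0.39 with sh#16, and between 0.46 and 0.60 with sh#87. SPI1, CEBPA and CEBPB transcripts have GC contents of 65.2%, 65.9% and 66.2%, above those of at least 96.5% of genes. The transcripts of GFI1 (50.6%), RUNX1 (46.2%) and CEBPG (41.3%) lie nearer the median of 48.6%. Values after a correction for this trend are therefore given for the 6 genes. Levels per length and all other genes below are given without it.

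With EVI1 knockdown, SPI1 and CEBPG fell to between 13.0% and 27.5% of NT with each shRNA, GFI1 fell less, RUNX1 fell with sh#87, and CEBPB rose with sh#16. CEBPA and CEBPB had higher mean levels than NT with both shRNAs but did not pass the test. After a correction for GC content and length their log2 fold changes were -0.20 and -0.17, near the corrected median of all genes of -0.21. The rise of CEBPB with sh#16 was then 0.11 and no longer passed, beside a corrected median of all genes of -0.25. With both shRNAs as 1 group against NT (6 libraries against 3), 3 of the 6 genes passed the test at an adjusted p of at most 0.01, all lower, and none passed as higher. Of all 16312 genes tested, 29.7% passed as lower and 30.1% as higher, so a fall of 3 in 6 has to be read against a change in most of the transcriptome. SPI1 and CEBPG also had a log2 fold change of -2 or lower, the size at which a gene is called differentially expressed (DEG), as did 5.66% of all genes on the lower side. In 3 of the 6 genes all knockdown libraries lay below all NT libraries (32.1% of all genes) and in 0 of 6 they all lay above (33.9% of all genes). The median log2 fold change of the 6 genes was -0.66, and that of all genes 0.05.

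**Figure D1:**
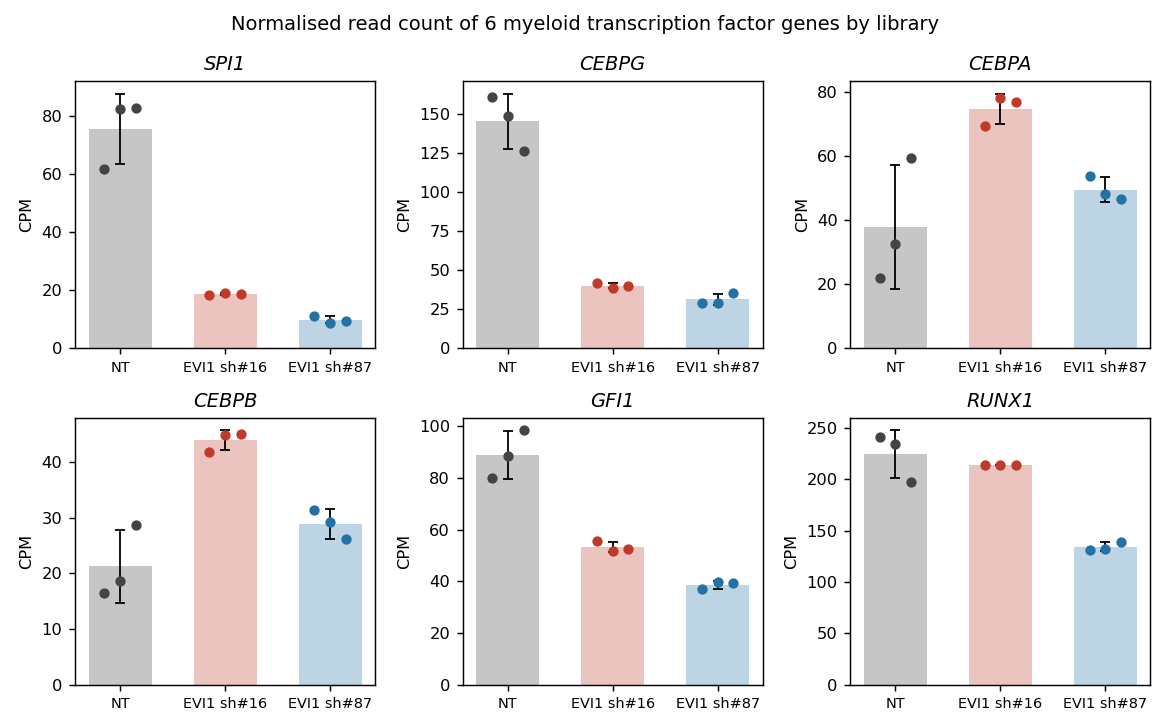
Normalised read counts in CPM (vertical axis, from 0) of 6 genes in NT, sh#16 and sh#87 libraries. Points are libraries, bars are means and error bars are SD (n = 3). SPI1, CEBPG and GFI1 of every knockdown library lie below every NT library, while CEBPA of NT spans 21.97 to 59.4 CPM and overlaps with sh#87.

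SPI1 (chr11:47354860-47378547, GRCh38, minus strand) stood at 61.7, 82.5 and 83.0 CPM in the NT libraries, at 18.3, 19.1 and 18.7 CPM with sh#16, and at 11.2, 8.80 and 9.51 CPM with sh#87. The 3 groups do not overlap. SPI1 was at 18.9% of its NT level with both shRNAs (log2 fold change -2.40 ± 0.26 (SE), adjusted p = 1.71e-05), at 24.7% with sh#16 (-2.02 ± 0.13, adjusted p = 1.65e-06) and at 13.0% with sh#87 (-2.94 ± 0.14, adjusted p = 1.49e-07). Its NT level was lowest in library 1, which has the lowest level of GC-rich genes, and nearly the same in libraries 2 and 3, which also differ in that level. The correction made library 1 the highest of NT and widened the NT range. After removal of each library's trend on GC content and length, its level was 136, 129 and 87.5 CPM in NT and between 6.98 and 15.2 CPM in the knockdown libraries, and the log2 fold change with both shRNAs was -3.30 (adjusted p = 1.15e-06). The genes whose profile over the 9 libraries was nearest to that of SPI1, among 11112 candidates, were RCSD1 and P2RY6, with a root mean square difference of 0.12 and 0.13 on the log2 scale.

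CEBPG (chr19:33373709-33382686, plus strand) had the highest level per length of the C/EBP genes in NT. It stood at 161.3, 149 and 127 CPM in NT, at 41.9, 38.7 and 39.6 CPM with sh#16, and at 29.2, 29.1 and 35.4 CPM with sh#87. Knockdown libraries lay far below NT, and sh#87 below sh#16. CEBPG was at 24.5% of its NT level with both shRNAs (log2 fold change -2.03 ± 0.13, adjusted p = 6.35e-07), at 27.5% with sh#16 (-1.86 ± 0.11, adjusted p = 8.94e-07) and at 21.4% with sh#87 (-2.22 ± 0.11, adjusted p = 2.13e-07). Its fall passed the test under every alternative, whereas its place past the DEG limit of -2 did not hold without NT replicate 1 (-1.96), sh#87 replicate 1 (-1.97) or sh#87 replicate 2 (-1.97), nor with upper-quartile normalization (-1.92), with the GC and length correction (-1.94) or with voom weights per group (-1.94). The nearest profiles were those of RFX7 and SMIM10L1 (root mean square difference of 0.07 for both).

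CEBPA (chr19:33299934-33302534, minus strand), the neighbour of CEBPG at a distance of 71174 bases, did not follow it. Its NT libraries held 21.97, 32.4 and 59.4 CPM, a 2.702-fold range, while sh#16 libraries held 69.4, 78.1 and 76.7 CPM and sh#87 libraries 53.9, 48.0 and 46.6 CPM. All sh#16 values lay above NT, and sh#87 values overlapped with NT. The difference did not pass the test with both shRNAs (log2 fold change 0.71 ± 0.30, adjusted p = 0.0507), with sh#16 (0.98 ± 0.29, adjusted p = 0.0138) or with sh#87 (0.38 ± 0.29, adjusted p = 0.253). The order of the NT values is that of the GC trend of the libraries. Without NT replicate 3 the difference with both shRNAs was 1.17 (adjusted p = 0.00236), that with sh#16 1.44 (adjusted p = 9.52e-06) and that with sh#87 0.85 (adjusted p = 0.000325). After the GC and length correction CEBPA stood at 53.5, 54.4 and 65.0 CPM in NT, between 56.9 and 62.0 CPM with sh#16 and between 35.1 and 39.7 CPM with sh#87. The log2 fold change with sh#87 was then -0.56 (adjusted p = 0.000194), and with both shRNAs -0.20 (adjusted p = 0.363). Corrected values have their own shift, since the median of all genes with both shRNAs was -0.21 on that scale, -0.25 with sh#16 and -0.20 with sh#87. The direction of CEBPA against NT with both shRNAs and with sh#87 turned with this correction. It stayed positive with RLE, upper-quartile and DESeq2 normalization. With sh#16 CEBPA passed as higher in 5 of 19 alternatives. Among these were DESeq2 (0.97, adjusted p = 0.00128), upper-quartile normalization (1.08, adjusted p = 0.00726) and voom weights (1.07, adjusted p = 0.00228). After the GC and length correction the sh#16 value was 0.09 (adjusted p = 0.376).

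CEBPB (chr20:50190583-50192690, plus strand) showed the same pattern at lower levels. NT libraries held 16.5, 18.7 and 28.8 CPM, sh#16 libraries 41.9, 44.8 and 45.1 CPM, and sh#87 libraries 31.4, 29.2 and 26.1 CPM. All sh#16 values lay above NT and sh#87 overlapped with NT. CEBPB rose with sh#16 to 2.05 times its NT level (log2 fold change 1.04 ± 0.19, adjusted p = 0.000807). It did not pass with both shRNAs (0.77 ± 0.23, adjusted p = 0.0126, but 0.74 and 0.00254 in the 3-group model) or with sh#87 (0.44 ± 0.19, adjusted p = 0.0546), while without NT replicate 3 it passed in both, at 1.03 (adjusted p = 0.00314) and 0.70 (adjusted p = 7.22e-05). With both shRNAs CEBPB passed as higher in 7 of 19 alternatives. Among these were DESeq2 (0.76, adjusted p = 0.00201), upper-quartile normalization (0.88, adjusted p = 0.00539) and voom weights (0.93, adjusted p = 0.00976). After the GC and length correction the rise with sh#16 was 0.11 (adjusted p = 0.324) and no longer passed, where the median of all genes was -0.25. With sh#87 the log2 fold change was then -0.50 (adjusted p = 0.000942).

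GFI1 (chr1:92473043-92486925, minus strand) stood at 79.9, 88.2 and 98.3 CPM in NT, at 55.4, 51.7 and 52.5 CPM with sh#16, and at 36.8, 39.6 and 39.2 CPM with sh#87. The 3 groups do not overlap. Its level with both shRNAs was 51.7% of NT (log2 fold change -0.95 ± 0.15, adjusted p = 0.000191), with sh#16 59.9% (-0.74 ± 0.08, adjusted p = 4.63e-05) and with sh#87 43.4% (-1.20 ± 0.08, adjusted p = 1.52e-06). Corrected for GC content and length, the NT values lay between 97.7 and 99.3 CPM and the knockdown values between 35.7 and 51.8 CPM.

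RUNX1 (chr21:34787801-35049302, minus strand) stood at 241, 234 and 197 CPM in NT and at 214, 214 and 214 CPM with sh#16, inside the NT range. With sh#87 it stood at 131, 132 and 139 CPM, below every other library. The log2 fold change was -0.74 ± 0.08 with sh#87 (adjusted p = 2.24e-05), -0.07 ± 0.08 with sh#16 (adjusted p = 0.459) and -0.36 ± 0.20 with both (adjusted p = 0.115). In the 3-group model the value with both was -0.40 and passed (adjusted p = 0.000402). With upper-quartile normalization the sh#16 value was 0.04. Without NT replicate 3 it was -0.18 (adjusted p = 0.00965). After the GC and length correction the values were -0.78 with sh#87 (adjusted p = 6.5e-05) and -0.16 with sh#16 (adjusted p = 0.176). The NT levels of RUNX1 were then 266, 248 and 196 CPM, a wider range than before.

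By shRNA, 3 of the 6 genes passed as lower and 1 as higher with sh#16 (30.2% and 29.8% of all genes), and 4 of 6 as lower and 0 as higher with sh#87 (33.6% and 34.3% of all genes). The comparisons with NT share their control libraries. The median log2 fold change of the 6 genes was -0.40 with sh#16 and -0.97 with sh#87, beside 0.04 and 0.04 for all genes.

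**Figure D2:**
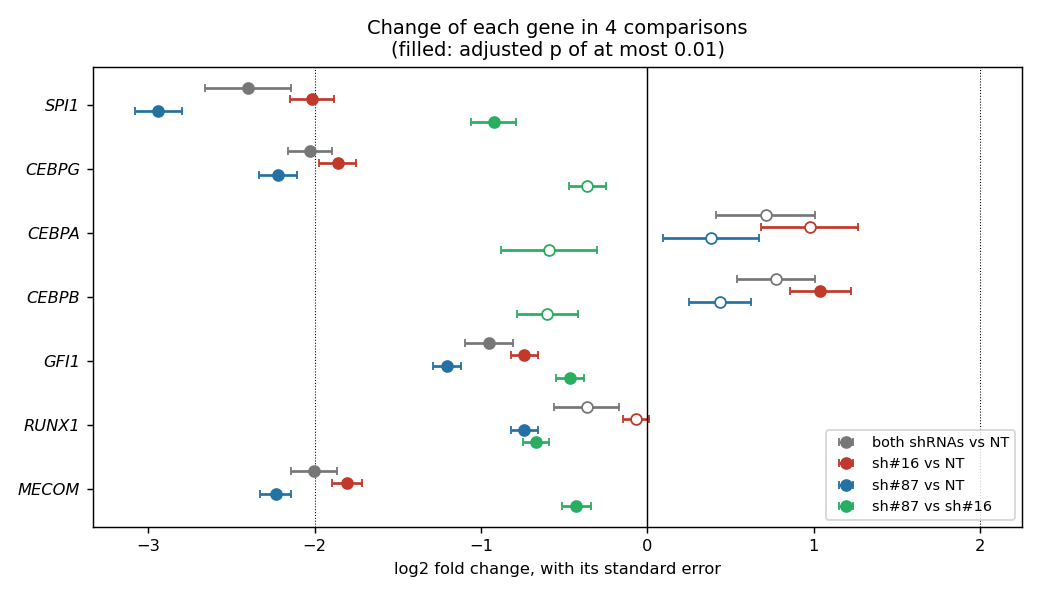
Log2 fold change (horizontal axis) of the 6 genes and of MECOM in 4 comparisons. Bars are standard errors, filled points have an adjusted p of at most 0.01, and dotted lines stand at -2 and 2. SPI1, CEBPG and GFI1 lie left of 0 in each comparison, and every gene has a negative value for sh#87 against sh#16.

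The direct comparison of the shRNAs does not use the NT levels. All 6 genes were lower with sh#87 than with sh#16, and in each of the 6 the sh#87 libraries all lay below the sh#16 libraries, a pattern held by 34.3% of all genes. The test was passed by 3 of the 6, all lower with sh#87, against 9.42% of all genes lower and 8.29% higher. SPI1 with sh#87 was at 52.7% of its sh#16 level (log2 difference -0.93 ± 0.14, adjusted p = 0.00139). RUNX1 was at 62.8% (-0.67 ± 0.08, adjusted p = 0.000471) and GFI1 at 72.4% (-0.47 ± 0.08, adjusted p = 0.00351). CEBPA (-0.59 ± 0.29, adjusted p = 0.145), CEBPB (-0.60 ± 0.18, adjusted p = 0.0332) and CEBPG (-0.36 ± 0.11, adjusted p = 0.0333) did not pass. This fit shares its estimate of the spread with the NT libraries. In a fit of the 6 knockdown libraries alone all 6 genes passed, with an adjusted p of 4.38e-05 for CEBPA, 4.07e-05 for CEBPB and 0.00220 for CEBPG, and so did 7534 genes in place of 2890. All 6 also passed without NT replicate 3. With the GC and length correction CEBPA (-0.65, adjusted p = 0.000478) and CEBPB (-0.61, adjusted p = 0.00114) passed as well, and CEBPG did not. The GFI1 difference did not pass without any single knockdown library (adjusted p between 0.0145 and 0.0194). MECOM itself was lower with sh#87 than with sh#16 (-0.43 ± 0.09, adjusted p = 0.00661).

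Levels of different genes can be set side by side only per transcript length. On the scale of CPM per kilobase of transcript, NT held 55.1 ± 8.83 of SPI1, 39.0 ± 4.73 of CEBPG, 37.5 ± 3.91 of RUNX1, 19.5 ± 2.02 of GFI1, 14.6 ± 7.42 of CEBPA and 11.6 ± 3.57 of CEBPB (mean ± SD, n = 3). CEBPG and RUNX1 are within their spread of each other, as are CEBPA and CEBPB, and CEBPA and GFI1. With sh#16 the order began with RUNX1 (35.8 ± 0.05), CEBPA (28.7 ± 1.81) and CEBPB (23.9 ± 0.96), followed by SPI1 (13.6 ± 0.29), GFI1 (11.7 ± 0.42) and CEBPG (10.7 ± 0.45). With sh#87 it was RUNX1 (22.5 ± 0.73), CEBPA (19.0 ± 1.49), CEBPB (15.7 ± 1.45), GFI1 (8.46 ± 0.32), CEBPG (8.37 ± 0.97) and SPI1 (7.17 ± 0.91), of which the last 3 overlap between libraries. SPI1 thus had the highest mean of the order in NT and the lowest with sh#87.

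Ratios within a library do not depend on the scaling of libraries. Per length, CEBPG over CEBPA was 5.12, 3.20 and 1.49 in NT, 0.42, 0.35 and 0.36 with sh#16 and 0.38, 0.42 and 0.53 with sh#87. CEBPG exceeded CEBPA in each NT library and stood below it in each knockdown library. SPI1 over CEBPA was 5.32, 4.82 and 2.65 in NT and between 0.35 and 0.50 in the knockdown libraries. GFI1 over SPI1 was 0.39, 0.32 and 0.36 in NT and between 0.82 and 1.36 in the knockdown libraries. CEBPA over CEBPB, a pair with nearly equal GC content, was between 0.94 and 1.46 in NT and between 1.16 and 1.26 in the knockdown libraries, which lie inside the NT range. With the GC and length trend removed, CEBPG over CEBPA was 2.04, 1.89 and 1.32 in NT. It lay between 0.43 and 0.70 in the knockdown libraries. SPI1 over CEBPA was then 4.80, 4.48 and 2.55 in NT and between 0.38 and 0.50 in the knockdown libraries. GFI1 over SPI1 was then 0.22, 0.23 and 0.34 in NT and between 0.98 and 1.6 in the knockdown libraries. NT and knockdown libraries did not overlap in any of these corrected ratios.

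**Figure D3:**
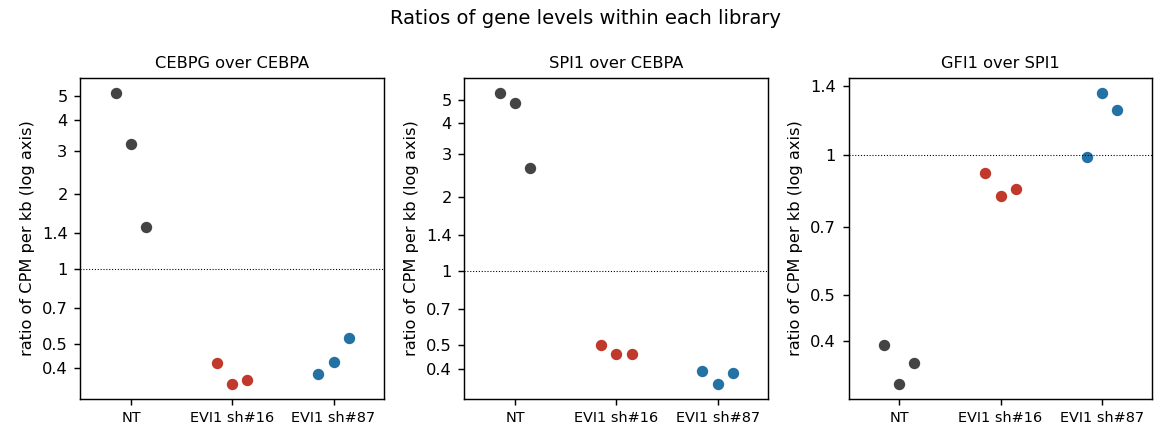
Ratio of the levels per kilobase of 2 genes within each library (vertical log axis) for CEBPG over CEBPA, SPI1 over CEBPA and GFI1 over SPI1. Points are libraries and the dotted line marks a ratio of 1. The NT libraries lie apart from the knockdown libraries in all 3 ratios, with CEBPG over CEBPA above 1 in NT and below 1 with both shRNAs.

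**Figure D4:**
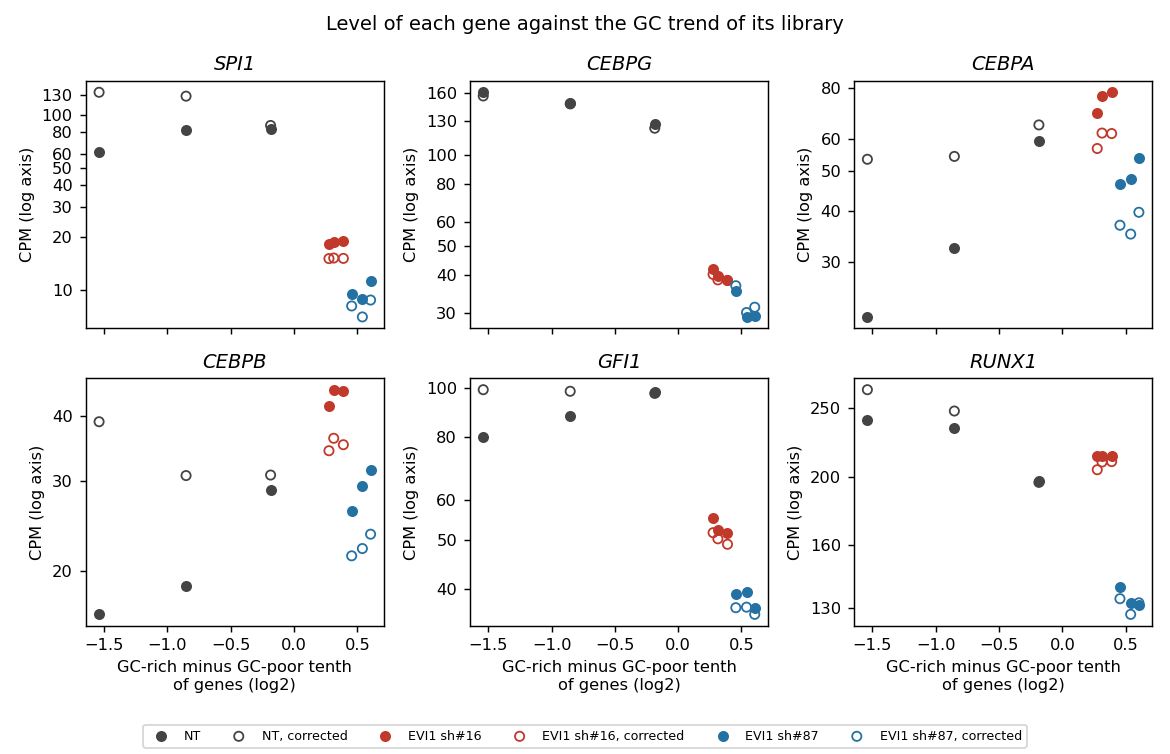
Level in CPM (vertical log axis) of each gene against the GC trend of its library, the mean deviation of the 10% of genes richest in GC minus that of the 10% poorest on the log2 scale (horizontal axis). Filled points are values as normalised and open points are values after the GC and length correction. CEBPA and CEBPB of NT library 1 lie at 21.97 and 16.5 CPM before and at 53.5 and 39.1 CPM after the correction, while CEBPG hardly moves.

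Promoter windows of RefSeq (GRCh38.p14), the 250 bases before an annotated start, were found for 5 of the 6 genes, all but SPI1, in 9 windows. They were searched on both strands for TTGCGCAA (the C/EBP palindrome), TGATGCAA (a composite C/EBP and ATF site), TGTGGT (RUNX), GAGGAAG (an ETS site of the PU.1 type) and the EVI1 motifs GACAAGATA and GAAGATGAG. These occur in 0.131%, 0.772%, 11.0%, 11.2%, 0.0854% and 0.265% of 35116 windows of the same length. No match was found in the windows of CEBPA, CEBPB and RUNX1. Matches stood in the window of the second start of CEBPG and of the second start of GFI1, both of which lie downstream of the first start of their gene. All matches found are shown, with the match in capitals and read 5′ to 3′ along the gene. The windows are chr19:33374061-33374088 (plus strand) for CEBPG, chr1:92486224-92486251 (minus strand) for the C/EBP palindrome of GFI1 and chr1:92486131-92486156 (minus strand) for its RUNX match.
CEBPG, C/EBP and ATF composite: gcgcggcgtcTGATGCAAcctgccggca
GFI1, C/EBP palindrome: gcctggccacTTGCGCAAaggagcgcgc
GFI1, RUNX: aagtgaagctTGTGGTtttgggggct
A match describes the letters of the window and says nothing of binding in these cells.

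Relatives of the 10 listed factors moved in both directions. Their list holds IRF and KLF genes, which are relatives of IRF8 and KLF4 and of none of the 6 genes analysed. It also holds cofactors such as CBFA2T3. Of its 24 genes, 21 were tested, of which 4 rose, 10 fell and 7 did not pass with both shRNAs. Of all genes, 30.1% rose and 29.7% fell. The median log2 fold change of the 21 was -0.46, and that of all genes 0.05. Here and in the lists below, knockdown levels are mean ± SD over the 6 knockdown libraries of both shRNAs. This SD includes the difference between the shRNAs. CBFA2T3, a corepressor of the ETO family, fell from 189 ± 28.9 to 30.2 ± 5.14 CPM (log2 fold change -2.65 ± 0.15, adjusted p = 2.40e-07). DDIT3, the stress-induced C/EBP family member CHOP, fell from 33.5 ± 2.88 to 5.02 ± 2.39 CPM (-2.75 ± 0.33, adjusted p = 3.83e-05), with a larger fall under sh#16 than under sh#87 (difference 1.28, adjusted p = 0.000417). IRF5, an interferon regulatory factor of monocytes and B cells, fell from 22.7 ± 6.03 to 4.83 ± 0.93 CPM (-2.23 ± 0.20, adjusted p = 4.62e-06). KLF2 was at 4 to 13 counts in the NT libraries (0.17, 0.17 and 0.43 CPM) and rose to between 8.75 and 9.27 CPM with sh#16 and between 2.01 and 3.29 CPM with sh#87 (4.43 ± 0.71, adjusted p = 0.000258).

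Among 24 dimer partners and regulators, 23 were tested, of which 8 rose, 11 fell and 4 did not pass, beside the same shares of 30.1% and 29.7% for all genes, with a median of -0.23. The falls included the basic leucine zipper genes of the ATF group. ATF4, the effector of the integrated stress response, fell from 720 ± 65.5 to 129 ± 8.23 CPM (-2.48 ± 0.09, adjusted p = 2.76e-08). ATF5 fell from 86.0 ± 5.82 to 2.10 ± 0.48 CPM (-5.33 ± 0.16, adjusted p = 1.31e-08). MAF, also a basic leucine zipper gene, fell from 32.2 ± 5.97 to 2.77 ± 0.28 CPM (-3.54 ± 0.14, adjusted p = 3.32e-08). FOS, an AP-1 subunit, rose from 0.37 ± 0.12 to 17.8 ± 7.09 CPM (5.54 ± 0.48, adjusted p = 4.11e-06), to between 10.6 and 12.0 CPM with sh#16 and between 22.3 and 25.6 CPM with sh#87. It was higher with sh#87 (difference 1.09, adjusted p = 0.000397).

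Of 24 genes known as targets of PU.1 or C/EBP factors, 14 were tested, of which 3 rose, 6 fell and 5 did not pass (30.1% and 29.7% of all genes rose and fell), with a median of -0.43. BTK, a kinase of B and myeloid cells, fell from 168 ± 13.2 to 27.9 ± 10.5 CPM (-2.59 ± 0.27, adjusted p = 1.51e-05). Its mean was 37.4 CPM with sh#16 and 18.3 CPM with sh#87 (difference -1.03, adjusted p = 0.000161). CTSG, the granule protease cathepsin G, was at 4.77, 5.85 and 5.97 CPM in NT, at 2, 10 and 2 counts with sh#16 and at 1, 0 and 0 counts with sh#87, where it was at least 40.4-fold lower than in NT against a limit of 3 counts per library. FCGR2A, an activating Fc receptor, rose from 10.3 ± 2.27 to 48.5 ± 10.5 CPM (2.24 ± 0.22, adjusted p = 1.06e-05). In the direct comparison 6 of these 14 genes were lower with sh#87 and 0 higher, where 9.42% of all genes were lower and 8.29% higher. For the family list that count was 3 lower and 3 higher of 21, and for the partners 2 lower and 5 higher of 23. Of 7 noncoding transcripts beside the 10 loci, CEBPA-DT was tested and did not pass (-0.15 ± 0.22, adjusted p = 0.562).

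**Figure D5:**
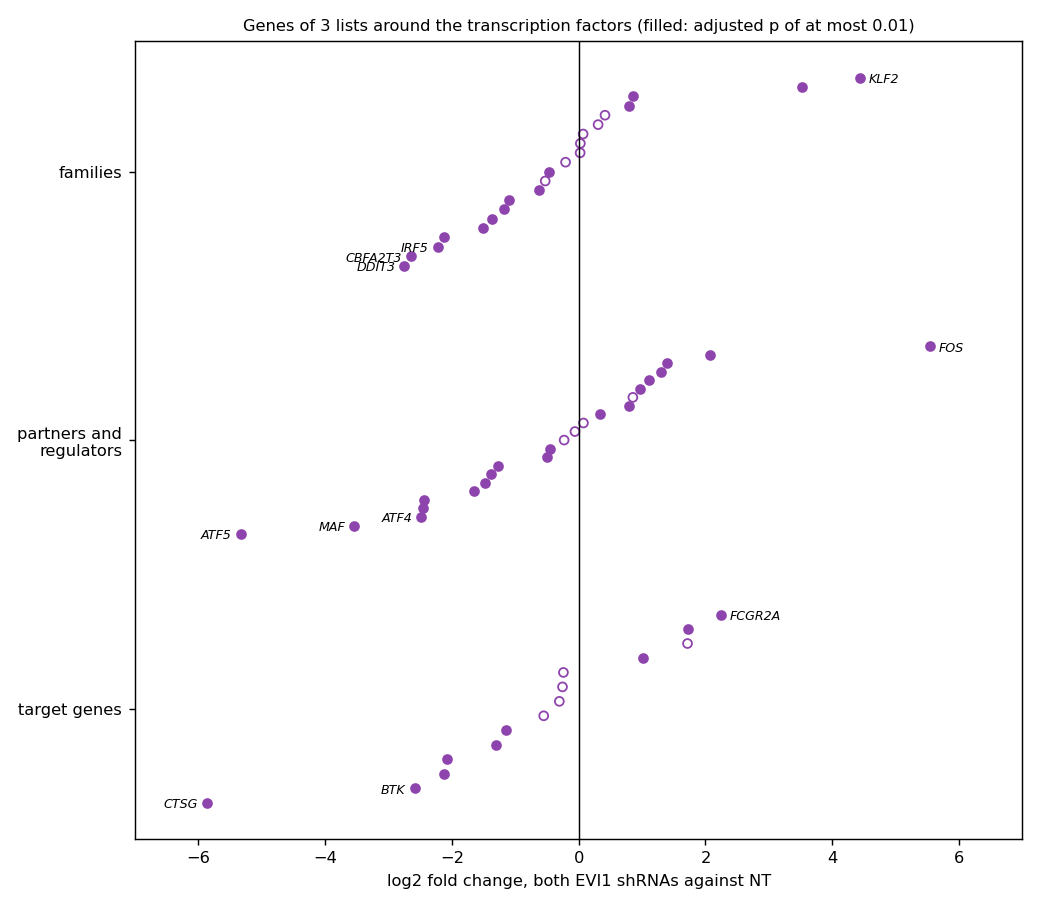
Log2 fold change with both EVI1 shRNAs against NT (horizontal axis) of the tested genes in 3 lists, each list ordered by its values. Filled points have an adjusted p of at most 0.01, and the genes with names are those given in the text. Each list has genes on both sides of 0, with 4, 8 and 3 that rose and 10, 11 and 6 that fell. The value of CTSG is a fitted one for a gene at the limit of detection with sh#87.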

How the data were processed

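PolyA-selected RNA of 9 HNT34 libraries was prepared with a strand-specific kit. As deposited by the authors, the values are estimated counts by gene symbol in 1 table that was not normalized. Its header names salmon output, whereas the study's methods name STAR and GRCh38, and it stands 1 column left of the values. All values are whole numbers, and no gene has fewer than 34 counts over the 9 libraries. Counts were tested with the quasi-likelihood test of edgeR 4.0.16 in R 4.3.3 (TMM normalization, filterByExpr, Benjamini-Hochberg adjustment over 16312 genes), two-sided, with the estimated counts used as they stand. All 6 genes passed the filter. Both shRNAs against NT were compared in a model of 2 groups, each shRNA with NT and with the other in a model of 3 groups. SE is the absolute log2 fold change over the root of F. The test was checked on simulated data. Total counts per library lay between 17096170 and 43502389, and a limit of detection was set at 3 counts in a library, which covers counting error alone.

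Groups were taken from sample titles. Nothing states that the libraries came from separate cultures, so p-values measure the spread between these libraries, which may be technical. No pair of libraries agreed within sampling noise. Library numbers did not pair groups (correlations of deviations between -0.15 and 0.09 in 9 pairs). Length and GC content came from 1 GRCh37 transcript per gene (84.4% of genes). Coordinates and promoters are from RefSeq GRCh38.p14. The members and lists were chosen with earlier results of these data known. From each list the text names the 4 genes with the largest absolute log2 fold change among those with an adjusted p of at most 0.01 and the same direction with each shRNA, provided that their higher group averaged 5 CPM or more. A gene that this rule names among the targets is not reported here. For each DEG it names the 2 genes nearest in profile. Alternatives were normalization by upper quartile or RLE, a filter at a mean of 10 counts or none, DESeq2 1.42.0, an adjusted p of 0.05, a replicate block, other models, each library left out, and, chosen after seeing the data, a loess correction for GC content and length (span 0.5, degree 1) and limma-voom (limma 3.58.1) with a weight per group. Motifs were searched with Python 3.11.15 and figures drawn with matplotlib 3.10.9.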

Additional observations from a re-analysis of the deposited data

Results flagged for a closer look

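SPI1 was lower with sh#87 than with sh#16 by a log2 difference of -0.93, as were GFI1 (-0.47) and RUNX1 (-0.67). Each passed at an adjusted p of 0.01 in edgeR's test of the difference itself. Each was lower in 3 of 3 sh#87 libraries, a pattern held by 34.3% of all genes. GFI1 did not pass when any 1 knockdown library was left out (adjusted p between 0.0145 and 0.0194) or with the replicate block (0.0111). MECOM differed in the same direction by -0.43. The total counts of the 6 knockdown libraries had 1 value far from the others, that of sh#16 replicate 2, whose gap took 0.773 of the range. It was 1 of 8 measures examined in this way, and chance sets about 1 in 20 apart. None of the calls of the 6 genes against NT with both shRNAs was lost without that library. For sh#87 against sh#16, the GFI1 call was lost without it (adjusted p = 0.0145), while SPI1 (0.00840) and RUNX1 (0.00383) still passed. Of all genes, 1098 then passed that comparison in place of 2890.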

How the results depend on the processing

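The falls of SPI1, CEBPG and GFI1 with both shRNAs passed under all 19 alternatives, with ranges of -3.30 to -2.20, -2.14 to -1.92 and -1.13 to -0.84. In place of 2 DEGs, 1 was counted with upper-quartile normalization, with the GC and length correction and with voom weights, and 1 to 2 with each library left out. In place of 3 genes passing with both shRNAs, 5 passed in the 3-group model, CEBPB and RUNX1 in addition. With a library left out 3 to 5 passed. The count was 4, with CEBPB in addition, under DESeq2, upper-quartile normalization, voom weights and an adjusted p of 0.05. Of all genes, 9752 passed with both shRNAs, 11244 in the 3-group model and 11767 at an adjusted p of 0.05. Under DESeq2 10586 passed, with upper-quartile normalization 9788, with voom weights 8442 and with a library left out 7877 to 9725. For sh#87 against sh#16, 5 passed at an adjusted p of 0.05, 6 in the fit of only these groups, 5 with the GC and length correction and 6 with voom weights in place of 3, and 2 to 6 with a library left out. The value 6 belongs to the fit without NT replicate 3. Of all genes, 2890 passed in this comparison, 5498 at an adjusted p of 0.05, 7534 in the fit of only these groups, 7390 with voom weights and 1098 to 5326 with a library left out. Values that turned direction were RUNX1 with sh#16 under upper-quartile normalization (0.036) and, with the GC and length correction, CEBPA with both (-0.20) and with sh#87 (-0.56) and CEBPB with both (-0.17) and with sh#87 (-0.50). Upper-quartile normalization shifted all genes by a median of 0.11 with both shRNAs on the log2 scale, and the GC and length correction, which tested 13854 genes, shifted them by -0.16.

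With the replicate block, 3, 4 and 4 genes passed with both shRNAs, sh#16 and sh#87, as without it, and the MECOM value was -1.998. For sh#87 against sh#16, 2 passed, GFI1 having an adjusted p of 0.0111, and 1588 of all genes passed. The level of RUNX1 in NT per kilobase of its longest annotated transcript was 30.8 in place of 37.5. The spread of the 3 NT libraries limits CEBPA and CEBPB, and the cause of the changes was not tested.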

Other observations

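Some listed genes went in different directions with the shRNAs and were chosen after their values were seen. NCF1, a subunit of the phagocyte NADPH oxidase, stood at 32.7 CPM in NT, 41.3 CPM with sh#16 (0.34 on the log2 scale, adjusted p = 0.00136) and 13.5 CPM with sh#87 (-1.28, adjusted p = 2.60e-07), a difference of -1.62 between the shRNAs (adjusted p = 7.17e-06). NCF1 shares near-identical sequence with its pseudogenes, so its counts are uncertain. EGR1, an immediate early factor of monocytes, stood at 8.86, 4.76 and 12.3 CPM in NT, sh#16 and sh#87. It fell with sh#16 (-0.89, adjusted p = 0.000676), did not pass with sh#87 (0.47, adjusted p = 0.0157) and differed between the shRNAs by 1.36 (adjusted p = 0.000406). ID2, an inhibitor of basic helix-loop-helix factors, rose with both, from 20.4 to 65.5 and 106 CPM, and MYB, a factor of immature blood cells, fell from 177 to 35.6 and 28.9 CPM.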
